A study of Arabidopsis thaliana with 12 samples.

Results

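The genes described here are 10 berberine bridge enzyme-like loci of Arabidopsis thaliana that lie in 2 tandem clusters on chromosome 1. The first cluster is AT1G26380, AT1G26390, AT1G26400, AT1G26410 and AT1G26420. The second is AT1G30700, AT1G30710, AT1G30720, AT1G30730 and AT1G30760. They were taken by locus identifier from the 13739 loci that the array names, through 11 probes. Those used in the test were selected on measured values: a ratio inside the limits of the deposited scale on at least 3 of the 4 arrays of each time point. All 10 have a probe, and 5 met that condition and were tested: AT1G26410, AT1G30710, AT1G30720, AT1G30730 and AT1G30760. The loci were proposed with results of these data known, so counts over them describe these genes and support nothing further.

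Berberine bridge enzyme-like proteins are flavin-dependent oxidases that pass through the secretory pathway and carry their FAD cofactor bound covalently to the protein. They are named after the poppy enzyme that closes the berberine bridge in alkaloid synthesis. Arabidopsis makes no such alkaloids, and its family members with a known substrate oxidise other small molecules, among them indole compounds of pathogen defence, cell wall oligosaccharides and monolignols, the alcohols from which lignin is built. Several family members are known to be induced by microbes and microbial elicitors.

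The study induced HANABA TARANU (HAN), which encodes a GATA factor needed for normal flower organs, as a fusion to the glucocorticoid receptor (GR) under the constitutive 35S promoter (35S:HAN-GR, Landsberg erecta background). Dexamethasone (Dex) lets such a fusion enter the nucleus. Plants received 10 µM Dex or a mock solution, and inflorescences with flower buds of stages 1 to 9 were collected 4, 12 and 72 h later. At each time the Dex-treated and mock-treated plants carried the same transgene, so the mock plants are the control, and each of 4 arrays per time point co-hybridised one Dex and one mock RNA. The sources used here do not give plant age or the number of independent transgenic lines, and Dex-treated plants without the fusion were not among the samples, so effects of Dex and of the fusion protein cannot be told apart. Arrays of one time point are labelled as biological replicates, without naming the plants behind each. The 0 h time point of the design is not analysed here.

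Each value is a log2 ratio of the channels of one array, centred on the median of the tested features of that array. The direction of the ratio is not stated. With values at the limits left out, arrays of opposite labelled dye correlated at 0.06 to 0.64 across tested features. The highest, 0.64 and 0.55, were 4 h pairs whose limit values had the same sign. Pairs with limit values of opposite sign correlated at 0.06 to 0.49, and pairs of the same sign at 0.32 to 0.73. All were positive, so the ratios went partly with the treatment, which holds for Dex over mock and for mock over Dex alike. The part of the dye in these correlations was not tested. With the limit values kept, 2 pairs of 4 h arrays with the same labelled dye correlated at -0.82 and -0.81 over all gene probes, and on 2 of the 4 h arrays the sign of limit values on blank spots did not match the labelled dye, so the dye labels may be exchanged there. The direction is therefore not settled. Signs below read as Dex over mock because the labels call the mock RNA the control, and no measured value bears on that choice. If the sign were turned, every rise below would be a fall and every fall a rise, while sizes and adjusted p-values would stand. On the array of 72 h replicate 3 the median absolute log2 ratio was 0.50, against 0.20 to 0.28 on the other 11 arrays. A ratio carries no expression level, and in whole inflorescences fewer cells of a type and less RNA per cell cannot be told apart. Of 10 floral marker genes only UFO and CLV3 had a named probe, and both were tested, so the labelled tissue could not be checked. UFO was at 0.06 ± 0.31, -0.10 ± 0.11 and 0.13 ± 0.14 (SD, n = 4) at 4, 12 and 72 h. CLV3, a stem cell marker of the floral meristem, was at 0.14 ± 0.39, -1.09 ± 0.38 and -1.04 ± 2.41 (n = 3), with 3 of 3 values negative at 12 h. It did not pass at 12 h over all arrays (limma adjusted p = 0.51) but was called lower with the 12 h arrays fitted alone (0.012), and its part in the 12 h results was not tested.

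How often the members could be measured differed between times. At 4 h 9 of the 10 loci had a value on at least 3 of 4 arrays, at 12 h 6 and at 72 h 7. Every member had a value or a limit on every array, and among the gene probes with the same the share with at least 3 values was 86.0%, 88.6% and 85.1%. The deposited ratios end at 100 and 0.01, and a value at such a limit is a bound. Of the 40 member values per time point, 2 (5.0%) lay at a limit at 4 h, 12 (30.0%) at 12 h and 7 (17.5%) at 72 h. For those gene probes 13.1%, 10.3% and 13.1% did. At the edge of the condition, AT1G30730 was kept with 3 values each at 12 and 72 h, and AT1G26380 was left out of the test over all arrays with 4, 4 and 2 values at 4, 12 and 72 h. AT1G26420 had 4 values at 4 h and 0 at 12 h, and AT1G26400 had 2 values at each time.

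**Figure D1:**
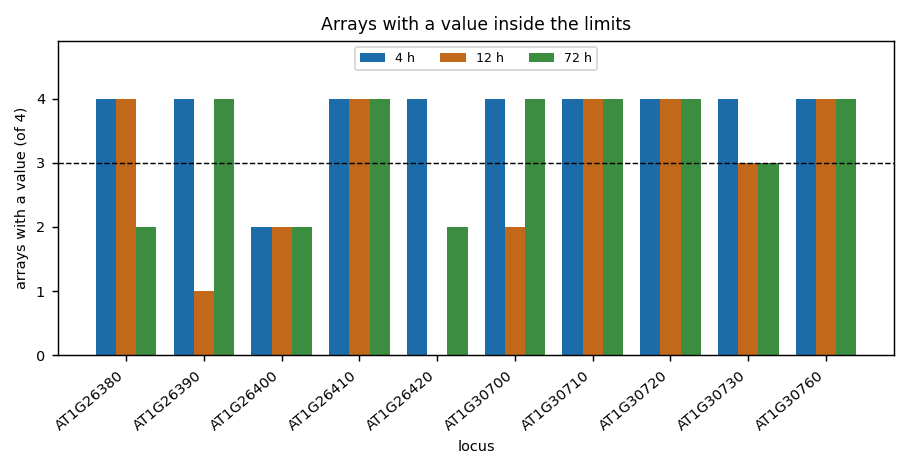
Number of arrays (of 4) on which each of the 10 loci had a value inside the limits, by time point; the dashed line marks the 3 arrays required. At 4 h the bars of 9 loci reach 4 and AT1G26400 stands at 2, while at 12 h AT1G26420 has none.

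AT1G26380 was the lowest member at 4 h. The locus encodes FOX1, an oxidase of the pathway that makes the defence compound hydroxyindole carbonyl nitrile after pathogen attack. Its centred log2 ratios at 4 h were -3.31, -3.64, -3.67 and -3.38 in replicates 1 to 4, a mean of -3.50 ± 0.18 (SD, n = 4), or 11.3-fold lower in Dex. At 12 h they were -0.23, -0.20, -0.16 and -0.62, a mean of -0.30 ± 0.21. All 8 values were negative, and the values of the 4 h arrays lay well below those of the 12 h arrays with no overlap. At 72 h replicates 3 and 4 gave -0.03 and -0.55, and replicates 1 and 2 lay at the upper and the lower limit. Without a minimum number of arrays, AT1G26380 fell at 4 h (limma adjusted p = 6.7e-06) and was not past the threshold of 0.05 at 12 h (adjusted p = 0.19). The difference of 3.20 between 12 and 4 h (SE 0.18) passed (adjusted p = 0.00050). In that fit 11.2% of all features were called at 4 h and 2.96% for the difference. With only the 4 h arrays and a value on 3 of them required, a setting chosen after seeing the data, AT1G26380 also fell (adjusted p = 0.018). With the limit values kept, AT1G26380 passed neither at 4 h (limma adjusted p = 0.26) nor for the difference between 12 and 4 h (0.84). That fit includes its 72 h values at the upper and the lower limit.

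AT1G26410, in the same cluster, was also low at 4 h and had a value on all 12 arrays. Its substrate in the plant is not given here. The 4 h values were -2.50, -2.20, -2.11 and -2.76, a mean of -2.39 ± 0.29 (SD, n = 4), or 5.25-fold lower in Dex. At 12 h they were 0.08, 0.24, 0.26 and 0.21, a mean of 0.20 ± 0.08. At 72 h they were 0.48, 0.33, 0.34 and 0.32, a mean of 0.37 ± 0.08. Every 4 h value was negative and every later value positive, so the 4 h arrays do not overlap with the others. AT1G26410 fell at 4 h (limma adjusted p = 1.06e-06), did not pass at 12 h (adjusted p = 0.27) and rose 1.29-fold at 72 h (adjusted p = 0.029). The rise at 72 h did not pass without any one of the 4 arrays of that time (adjusted p = 0.064 to 0.091), with the 72 h arrays fitted alone (0.24), with a replicate block (0.055), with quantile normalisation (0.068) or with equal median absolute deviations (0.056). The difference from 4 h was 2.59 at 12 h (SE 0.15; adjusted p = 7.2e-05) and 2.76 at 72 h (SE 0.15; adjusted p = 3.8e-05), and that between 72 and 12 h was 0.17 (SE 0.15; adjusted p = 0.56).

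Of the loci of the same cluster that lie between and beside these genes, AT1G26390 and AT1G26420 had smaller ratios at 4 h. AT1G26390, the next gene after AT1G26380, was at -0.45, -0.43, 1.19 and -0.55 at 4 h, so that replicate 3 alone was positive. AT1G26420, the next gene after AT1G26410, was at -0.18, -0.55, -0.29 and -0.96 (mean -0.50 ± 0.35), all negative. With the 4 h arrays fitted alone neither passed (limma adjusted p = 0.96 and 0.21). AT1G26400, between AT1G26390 and AT1G26410, gave 0.49 and -0.26 at 4 h in replicates 1 and 4, and replicates 2 and 3 lay at the upper limit. The 4 h values of AT1G26380 and AT1G26410 overlapped neither with each other nor with those of the other 3 loci of the cluster.

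**Figure D2:**
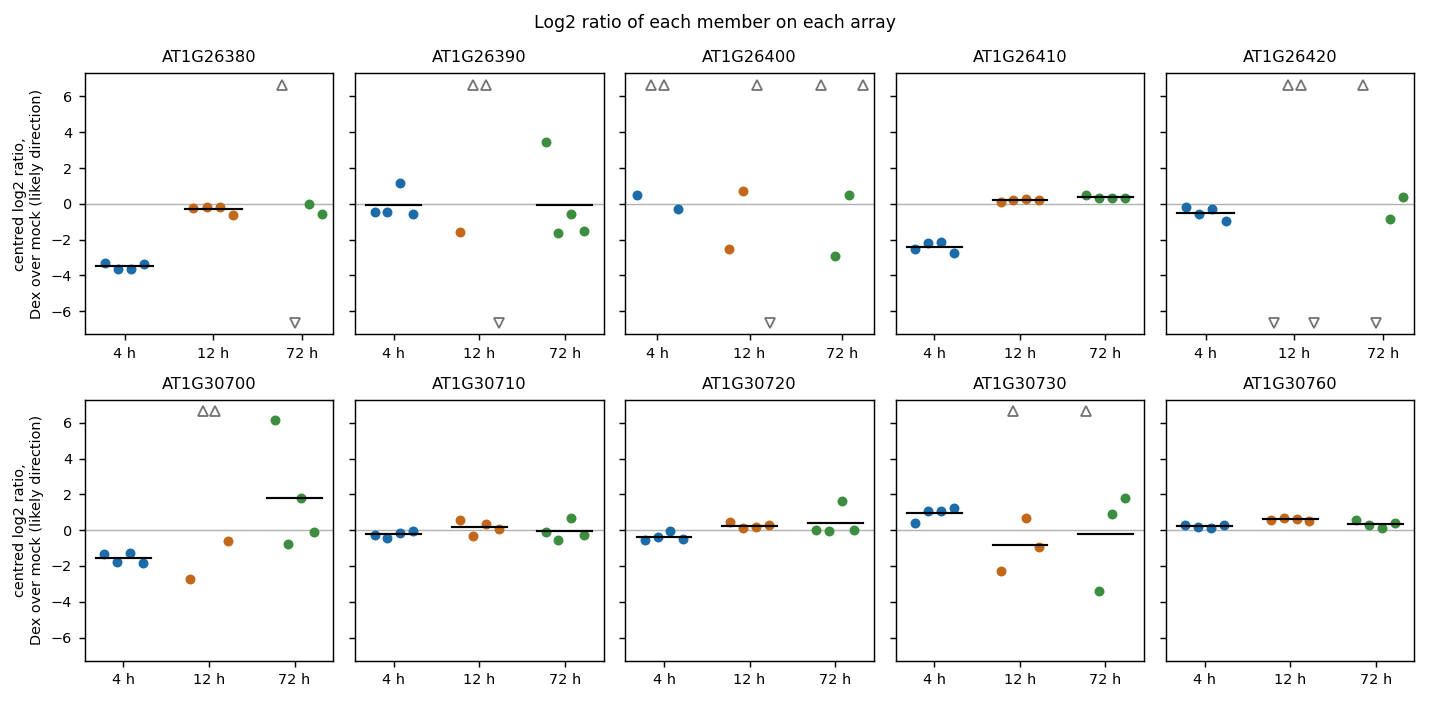
Centred log2 ratio of each of the 10 loci (1 panel each) on every array at 4, 12 and 72 h. Filled points are values, black bars are means where at least 3 values exist, and open triangles are values at the upper or lower limit; AT1G26380 (mean -3.50) and AT1G26410 (mean -2.39) stand far below 0 at 4 h and near 0 at 12 h.

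In the second cluster AT1G30700 was the lowest locus at 4 h. Its values there were -1.32, -1.80, -1.30 and -1.85, a mean of -1.57 ± 0.30 (SD, n = 4), or 2.97-fold lower in Dex. All 4 were negative and lay between those of AT1G26410 and AT1G26420. With the 4 h arrays fitted alone AT1G30700 fell (limma adjusted p = 0.026). In the fit over all arrays without a minimum number of values it did not pass (adjusted p = 0.45). That fit shares the spread of the 72 h arrays, where the locus gave 6.18, -0.77, 1.81 and -0.11. At 12 h replicates 1 and 4 gave -2.74 and -0.58, and replicates 2 and 3 lay at the upper limit.

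With the 4 h arrays fitted alone, 3 of the 9 members with at least 3 values, AT1G26380, AT1G26410 and AT1G30700, were called, all lower. Of all features, 3.91% were called lower in that fit, and since the members were proposed with results known nothing is read from the comparison. In the fit over all 12 arrays 1 of 5 tested members was called at 4 h, beside 11.1% of all tested features, 1 at 12 h, beside 15.8%, and 2 at 72 h, beside 20.7%. The median log2 ratio of the 5 was -0.22, 0.20 and 0.34 at 4, 12 and 72 h, against 0.00, 0.01 and 0.00 over all tested features. The response differed between 12 and 4 h in 1 of the 5, beside 2.43% of features, and between 72 and 4 h in 1, beside 8.55%, in each case AT1G26410. Between 72 and 12 h 0 differed by limma's adjusted p, beside 4.14%, and 1, AT1G30760, had an unadjusted p under 0.05 (0.042).

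AT1G30760 had the narrowest spread among the members of the second cluster. It encodes an oxidase that acts on monolignols in vitro. Its values were 0.28, 0.15, 0.10 and 0.29 at 4 h, 0.57, 0.70, 0.61 and 0.51 at 12 h, and 0.55, 0.26, 0.11 and 0.43 at 72 h. All 12 were positive, and the 4 and 12 h values did not overlap. The mean was 0.21 ± 0.10 at 4 h (limma adjusted p = 0.15), 0.60 ± 0.08 at 12 h (adjusted p = 0.00046) and 0.34 ± 0.19 at 72 h (adjusted p = 0.013; n = 4 each), so AT1G30760 rose 1.51-fold at 12 h and 1.26-fold at 72 h. The call at 72 h was lost without 72 h replicate 1 or 4 (adjusted p = 0.0588 and 0.0568) and with the 72 h arrays fitted alone (0.28). The difference of 0.39 between 12 and 4 h (SE 0.11) did not pass (adjusted p = 0.12), except without 72 h replicate 3 (adjusted p = 0.043) and with array weights (0.000981). Those weights ran from 0.10 on 72 h replicate 3 to 7.45 on 4 h replicate 2, so the weighted 4 h values rest largely on that 4 h array.

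AT1G30720 changed sign between 4 and 12 h. Its values were -0.55, -0.38, -0.03 and -0.47 at 4 h and 0.44, 0.10, 0.17 and 0.26 at 12 h, with no overlap. At 72 h they were -0.01, -0.04, 1.65 and 0.03, so that replicate 3 alone lay away from 0. The means were -0.36 ± 0.23, 0.24 ± 0.15 and 0.41 ± 0.83 (SD, n = 4), and 0 of the 3 passed (limma adjusted p = 0.44, 0.59 and 0.21). Without 72 h replicate 3, which feeds the shared estimate of the spread, AT1G30720 was called lower at 4 h (adjusted p = 0.018) and its difference of 0.60 between 12 and 4 h passed (0.023, against 0.47 with all arrays). Its neighbour AT1G30710 was at -0.22 ± 0.16, 0.16 ± 0.38 and -0.07 ± 0.52 (adjusted p = 0.61, 0.70 and 0.81).

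AT1G30730 was the only tested member on the higher side by over 0.5 at 4 h. Its 4 h values were 0.39, 1.05, 1.07 and 1.24, all positive, with a mean of 0.94 ± 0.37 (SD, n = 4). At 12 h replicates 1, 3 and 4 gave -2.26, 0.65 and -0.92, and at 72 h replicates 2, 3 and 4 gave -3.40, 0.92 and 1.80. These later values scatter on both sides of 0, and the arrays without a value lay at the upper limit. The locus did not pass at any time (limma adjusted p = 0.58, 0.76 and 1.00), except at 4 h when only the 4 h arrays of the tested features were fitted (0.0398). With the 4 h arrays fitted alone under their own filter, as for AT1G26380, it did not pass (0.0527).

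On each array 90.6% to 100% of the limit values of gene probes had one sign, positive on 2 arrays of each time point and negative on the other 2. At 72 h AT1G30700 gave 6.18 and -0.11 on the arrays with positive limit values and -0.77 and 1.81 on the others. AT1G26390 gave 3.47 and -1.51 against -1.64 and -0.57. Both had their highest value on replicate 1, while replicate 4, of the same sign, lay below replicate 3, of the other. The mean on the arrays with positive limit values minus that on the others ran both ways among the tested members at 72 h. It was 3.04 for AT1G30730 (1 array against 2), 0.30 for AT1G30760, 0.07 for AT1G26410, -0.25 for AT1G30710 and -0.80 for AT1G30720. Among untested members at 72 h it was 2.51 for AT1G30700 and 2.08 for AT1G26390. With 1 array against 1 it was 1.24 for AT1G26420 and -0.52 for AT1G26380. At 12 h it was 3.24 for AT1G26400 (1 against 1) and 2.24 for AT1G30730 (1 against 2). The other members with both kinds of array lay between -0.32 and 0.24 at 12 h. At 4 h the difference was -0.31 for AT1G26380, 0.47 for AT1G26410 and 0.03 for AT1G30700, and largest for AT1G26390 at 0.88. With the sign of limit values on blank spots in the model in place of the labelled dye, AT1G26410 was at -2.39 at 4 h (limma adjusted p = 3.4e-07). Its difference between 12 and 4 h was then 2.59 (adjusted p = 1.0e-05). Beyond that fit, the part of this array orientation in the results was not tested.

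**Figure D3:**
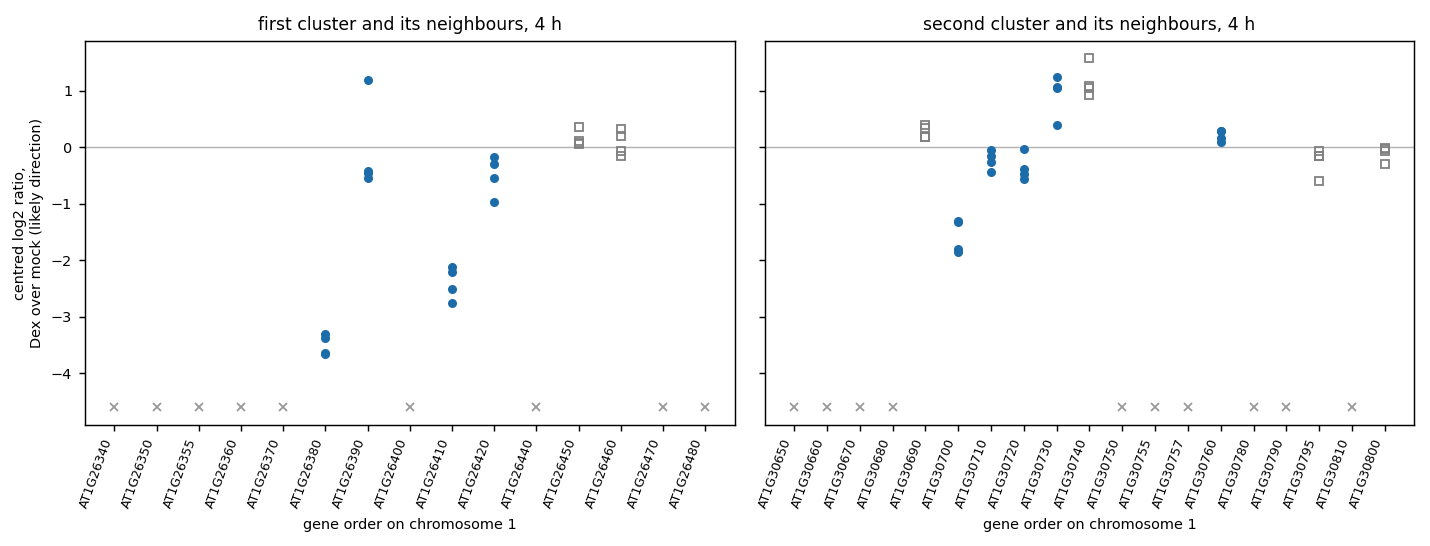
Centred log2 ratios at 4 h of the loci of both clusters (filled circles) and of the genes inside and beside them (open squares), 4 arrays each, in gene order along chromosome 1; crosses at the bottom mark loci with fewer than 3 values. AT1G26380, AT1G26410 and AT1G30700 lie below -1, and the tested genes outside the clusters lie within 0.6 of 0.

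Of the genes around the clusters, 0 of those tested were called lower at 4 h, beside 6.87% of all tested features. The untested AT1G26350 gave -2.65 and -3.91 on 2 arrays. Of 24 loci inside the second cluster or among the 5 protein-coding genes on either side of each cluster, 8 had a named probe and 6 were tested. At 4 h 1 of these 6 was called, beside 11.1% of all tested features, and nothing is read from these counts. The called gene was AT1G30740, a berberine bridge enzyme-like gene between AT1G30730 and AT1G30760. It was at 1.05, 0.92, 1.57 and 1.09 at 4 h, all positive, and rose 2.23-fold there (1.16 ± 0.29, n = 4; limma adjusted p = 0.0031). At 12 and 72 h it was at 0.32 ± 0.15 and 0.55 ± 0.68 (adjusted p = 0.37 and 0.074). AT1G26450, AT1G26460, AT1G30690, AT1G30795 and AT1G30800 had 4 h means between -0.25 and 0.27, none called. AT1G30795 rose at 72 h, to 1.41 ± 0.74 (adjusted p = 0.00031), and AT1G30800 fell, to -0.43 ± 0.05 (adjusted p = 0.023), a call that 12 of 27 alternatives ended, among them leaving out any one 72 h array.

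Beside the 10 loci, 15 of 17 further berberine bridge enzyme-like loci had a named probe and 9 were tested, AT1G30740 among them. Of these 9, 1 was higher at 4 h, AT1G30740 as given above, and 3 lower, while 0 were higher and 2 lower at 12 h and 0 higher and 4 lower at 72 h. The shares of all tested features called higher were 4.21%, 5.34% and 9.88%, and lower 6.87%, 10.5% and 10.9%. AT2G34810 fell at every time, at -1.99 ± 0.20, -2.06 ± 0.62 and -2.11 ± 0.31 (SD, n = 4; limma adjusted p = 5.2e-05, 2.5e-05 and 2.6e-05), with all 12 values negative. AT5G44410 also fell at every time, 1.82-fold at 4 h, 3.99-fold at 12 h and 2.50-fold at 72 h (adjusted p = 0.00040, 1.8e-06 and 1.9e-05). Its 12 h values, from -2.34 to -1.81, lay below all its values at 4 and 72 h. Its neighbours in the chromosome 5 group, AT5G44400 and AT5G44440, fell at 72 h, to -0.95 ± 0.09 and -1.53 ± 1.31 (adjusted p = 0.00059 and 0.011), though neither passed with the 72 h arrays fitted alone (0.055 and 0.20). The value of AT5G44440 was -0.91 when its lowest array at that time, replicate 2 at -3.44, was left out. At 4 and 12 h its values were also all negative, with means of -0.46 and -0.54, but did not pass (limma adjusted p = 0.59 and 0.40).

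AT4G20830, which encodes an oxidase of oligogalacturonides, fragments of cell wall pectin that act as danger signals, had a time course of the same sign as AT1G26410. It was at -1.10, -0.57, -0.37 and -1.14 at 4 h (mean -0.80 ± 0.39; limma adjusted p = 0.0050) and at 0.17 ± 0.15 and 0.11 ± 0.30 at 12 and 72 h (n = 4 each). Its difference of 0.97 between 12 and 4 h passed (SE 0.21; adjusted p = 0.041), though not with a replicate block (0.13), without any one of the 12 h arrays, without 4 h replicate 1, 2 or 4, or without 72 h replicate 4 (0.066 to 0.14). With the 4 h arrays fitted alone its fall did not pass (adjusted p = 0.12). The related loci AT4G20840 and AT1G11770, also oligogalacturonide oxidases, were at 0.03 ± 0.12 and 0.00 ± 0.33 at 4 h and did not pass at any time. AT1G34575 was at 0.09 ± 0.20 at 4 h and did not pass either.

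**Figure D4:**
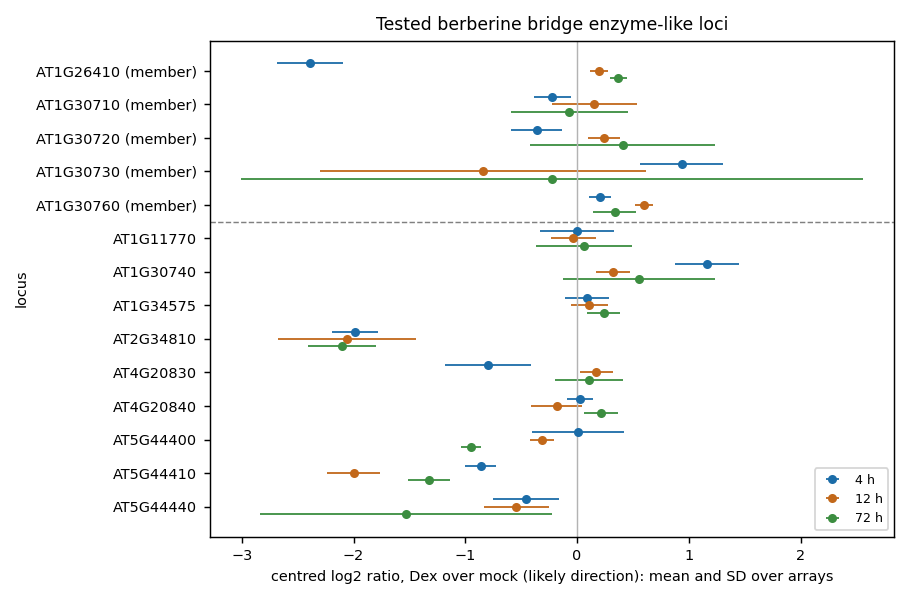
Mean and SD over arrays of the centred log2 ratio at 4, 12 and 72 h for the 5 tested members (above the dashed line) and the 9 other tested loci of the family. AT1G26410 (-2.39) and AT4G20830 (-0.80) are low at 4 h alone, while AT2G34810, AT5G44410 and AT5G44440 are below 0 at each time.

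Pathways in which family members act were sparsely covered by named probes. As 12130 gene probes had no name, a gene without a named probe may still have been measured. Of 9 genes of the indole carbonyl nitrile and camalexin pathway, in which FOX1 acts, and of 9 genes of cell wall oligosaccharide sensing, 0 had a named probe used here. Of 17 elicitor and pathogen response genes only the defensin gene PDF1.2 was tested, at -0.58 ± 0.38, -0.05 ± 0.27 and -0.83 ± 1.03 (SD, n = 4), with 0 calls (limma adjusted p = 0.35, 0.96 and 0.083). Of 20 monolignol and lignin genes 2 were tested. CCR2, a cinnamoyl-CoA reductase gene of lignin synthesis, rose at each time, to 0.95 ± 0.54, 0.82 ± 0.21 and 0.96 ± 0.27 (adjusted p = 0.0048, 0.0085 and 0.0032). HCT, an acyltransferase gene earlier in the same route, was at -0.04 ± 0.20 at 4 h and fell at 12 and 72 h, to -0.50 ± 0.11 and -0.59 ± 0.47 (adjusted p = 0.037 and 0.014). CCR2 did not pass with the 4 h or the 72 h arrays fitted alone, or at 12 h without 12 h replicate 3, and the call of HCT at 12 h was lost without any one of the 12 h arrays, without 4 h replicate 2 or 4 and with a replicate block. At 72 h HCT did not pass with those arrays fitted alone (0.22), and without 72 h replicate 3, at -1.29, its value was -0.37.

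The genes with the pattern most like a member were found by Pearson's correlation over the 12 arrays among 9622 named loci with all 12 values. The arrays are shared by all genes, and the values are descriptions. For AT1G26410 they were AT3G45730 (r = 0.97), AT1G27030 (0.96) and PUB25, a U-box ubiquitin ligase gene (0.95). AT3G45730 was at -1.39 ± 0.30, -0.06 ± 0.07 and 0.04 ± 0.15 at 4, 12 and 72 h, AT1G27030 at -1.59 ± 0.17, 0.92 ± 0.26 and 0.72 ± 0.27, and PUB25 at -1.51 ± 0.31, -0.17 ± 0.13 and 0.01 ± 0.17. All 3 were low at 4 h alone. For AT1G30760 the likest were AT4G15730 (0.93), AT2G39670 (0.90) and AT3G18240 (0.89), for AT1G30720 AT3G13740 (0.96), AT1G77540 (0.95) and AT2G37510 (0.95), and for AT1G30710 AT4G31790 (0.86), AT1G34380 (0.85) and AT2G47340 (0.85). Among the 4 members with all 12 values the correlations ran from -0.05, between AT1G30720 and AT1G30760, to 0.74, between AT1G30710 and AT1G30720. AT1G30720 was at 1.65 on 72 h replicate 3, the array with the widest ratios, and at most at 0.44 on any other. Its correlations, the 0.74 included, weigh that array heavily and were not repeated without it.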

How the data were processed

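The deposited values are log2 ratios of the 2 channels of an array. Per the labels' protocols, amplified RNA was made by in vitro transcription and coupled to Cy3 or Cy5. The sources used here do not give the background correction, normalization, centring or direction. The log base was read from the extremes, which are log2 of 100 and 0.01. Column medians lay between -0.28 and 0.13. Of 26540 rows, 26090 were gene probes. On an array 9.43% to 17.2% of gene probe values lay at a limit, and these were treated as missing. Each of the 12 columns belonged to a sample.

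Probes were named through the platform annotation (13960 named, 12130 unnamed), and 13912 matched the TAIR10.1 gene table. Probes of one locus were averaged. The 2 probes of AT1G30760 held identical values and no other member shared its values with a probe. Probe sequences were not used here, so cross-hybridisation between these tandem copies was not tested. The 18125 features with a value on at least 3 of 4 arrays at each time point were tested.

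Using limma 3.58.1 (R 4.3.3), each feature's 12 arrays were modelled by time point means plus an effect of the dye in the labels, with empirical Bayes moderation. Two-sided p-values were corrected over all features by Benjamini and Hochberg's procedure and called at 0.05. A time point fitted alone uses features with a value on at least 3 of its own arrays, an alternative chosen after seeing the data, unless stated. The fit was tested on simulated data with independent noise and no dye or orientation effect, so that check does not cover such effects. The fit drops missing arrays, so AT1G30730 rests on 3 arrays at 12 and at 72 h. Members and gene lists were chosen with earlier results of these data known. Named are the members, the tested loci of the family and beside the clusters, called pathway genes, and the 3 loci most like each member with all 12 values. Alternatives covered limit values, dye, normalization, filters, weights, replicate block, thresholds and each left-out array. Deviations of same-numbered arrays correlated at 0.18 to 0.32 between 4 and 12 h and at -0.29 to -0.09 against 72 h. The sign of limit values is shared by same-numbered arrays at 4 and 12 h and opposite at 72 h. The labels state no shared plants for a number, so the main model has no block, and block results that end a call are given beside it. The number of arrays limits the precision, and p-values measure the spread between these samples.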

Additional observations from a re-analysis of the deposited data

Results flagged for a closer look

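Within groups of 4 arrays, 1 sample stood far from the other 3 in 4 of 20 groups checked, where chance gives about 1 in 20. These were AT1G26380 at 12 h, with replicate 4 at -0.62, AT1G26390 at 4 h, with replicate 3 at 1.19, AT1G26410 at 72 h, with replicate 1 at 0.48, and AT1G30720 at 72 h, with replicate 3 at 1.65. The last is the array with the widest ratios of the series. The response of AT1G26410 differed between time points in the limma fit, by 2.59 from 4 to 12 h (adjusted p = 7.2e-05) and by 2.76 from 4 to 72 h (adjusted p = 3.8e-05), with 4 of 4 arrays negative at 4 h and 8 of 8 positive later.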

How the results depend on the processing

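Of the 5 tested members 1 was called at 4 h. The count became 2 with only the 4 h arrays of the tested features or with equal median absolute deviations. With array weights it was 4, where 4 h replicate 2 had a weight of 7.45 and the other 4 h arrays 0.39 to 0.80. With no minimum number of arrays it was 2, the untested AT1G26380 among them, beside 11.2% of all features. It was 3 with each time point fitted alone under its own filter, beside 3.91% of features called lower. With the 4 and 12 h arrays only it was also 3. Both were chosen after seeing the data, and both can call untested members. AT1G26410 was called in each of these settings. Unless stated, the share of all features called in a setting is not given, and nothing is read from its count. Leaving out single arrays gave 1 to 2 at 4 h, 1 to 1 at 12 h, 0 to 2 at 72 h, and for the differences 1 to 3 (12 against 4 h), 0 to 0 (72 against 12 h) and 1 to 1 (72 against 4 h); the highest counts at 4 h and for 12 against 4 h came without 72 h replicate 3, and the 0 at 72 h without 72 h replicate 1 or 4. At 12 h (1) array weights gave 3. At 72 h (2) the count was 1 with quantile normalization, equal median absolute deviations or a replicate block, and 0 with the 72 h arrays alone under either filter, at adjusted p under 0.01 or with a limit of 1.5-fold. For 12 against 4 h (1) it was 2 with only those arrays, 4 with array weights and 3 with the 4 and 12 h arrays under their own filter. With no minimum it was 2, AT1G26380 among them, beside 2.96% of all features. For 72 against 4 h (1) it was 2 with no minimum, AT1G26380 among them, and 3 with array weights. The replicate block left the other counts at 1 (4 h), 1 (12 h), 1 (12 against 4 h), 0 (72 against 12 h) and 1 (72 against 4 h). Across 28 alternatives the fall of AT1G26410 at 4 h kept adjusted p at or below 0.018, and the rise of AT1G30760 at 12 h at or below 0.0075. Ratios do not show signal over background. Apart from fewer arrays or other filters, the cause of these changes was not tested.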

Other observations

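AT5G44390 and AT4G20820, loci of the family without enough values for the test over all arrays, passed with single time points fitted alone, and both are named after their values were seen. AT5G44390 was at -1.08, -1.03, -0.70 and -1.27 at 4 h, all negative, and at a limit on all arrays at 12 and 72 h. AT4G20820 was at -0.89, -0.93, -1.15 and -0.33 at 12 h and at 0.33 ± 0.32 (SD, n = 4) at 72 h. With each time point fitted alone, limma's adjusted p was 0.038 for AT5G44390 at 4 h and 0.017 for AT4G20820 at 12 h. AT4G20800 with 4 values at 12 h (0.03 ± 0.42) and AT4G20860 with 4 at 4 h (0.14 ± 0.16) and at 72 h (0.84 ± 2.36) did not pass there. AT1G26350, the only gene with a named probe among the 5 before the first cluster, gave -2.65 and -3.91 on 2 arrays at 4 h and is also named after its values were seen.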
